A study of Mus musculus with 6 samples.

Results

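The Polycomb complex genes described here are 9 protein-coding genes, of 21951 in the GENCODE vM21 annotation of GRCm38. They were chosen by name, with earlier results of these data known. They are the PRC2 genes *Ezh1*, *Ezh2*, *Eed* and *Suz12* and the PRC1 genes *Bmi1*, *Rnf2*, *Cbx2*, *Cbx7* and *Cbx8*. H3K4me3, the histone mark of active and poised promoters, was mapped by ChIP-seq in 2 mouse lymphoid progenitor cell lines, with 2 H3K4me3 libraries and 1 input library each and no treatment. Scid.adh.2C2 is a cloned line of T cell progenitors, resembling the DN3 stage, that was grown from a thymus tumour of a CB17-Prkdc scid mouse. The other is a B cell progenitor line transformed with the Abelson virus, called the Abelson line here. Each lineage is represented by 1 transformed line, so lineage and line cannot be told apart.

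Polycomb proteins keep genes silent in cells where they are not needed. PRC2 places methyl groups on H3K27 through EZH1 or EZH2, which need EED and SUZ12 to work. Canonical PRC1 reads that mark through a CBX protein and holds the RING1B ubiquitin ligase (*Rnf2*) and a PCGF protein such as BMI1. In blood cells, Polycomb proteins are known for keeping progenitors dividing and for holding back genes of other lineages.

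For each line the authors combined both replicates into 1 peak list, with 15513 peaks in Scid.adh.2C2 and 19604 in the Abelson line. The lists therefore give neither an error over replicates nor a library depth, and none of the differences between the lines could be tested. A promoter is called marked here when a peak overlaps the 2500 bp either side of any annotated TSS of the gene, and unmarked when no peak passed the authors' thresholds there. In a check of the labels, 10 of 10 T cell progenitor markers were marked in Scid.adh.2C2 and 3 in the Abelson line, while 10 of 10 B cell progenitor markers were marked in the Abelson line and 2 in Scid.adh.2C2. Of the markers of other cells, 1 of 6 myeloid, 1 of 5 erythroid and 0 of 5 stromal genes were marked in Scid.adh.2C2, and 1, 2 and 1 in the Abelson line.

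The promoter sequences of 5 of the genes are shown because results below concern these promoters. Whether the sequences bear on the differences between the lines was not tested. The *Eed* promoter lay within a peak in Scid.adh.2C2 only, and the *Cbx7* promoter differed most in fold percentile between the lines. In both, capitals mark CG dinucleotides, of which there were 15 in the *Eed* stretch and 29 in the *Cbx7* stretch. At *Suz12*, *Rnf2* and *Cbx8* the mark was divided by a short gap at the start in both lines, and capitals mark the bases that lay in no peak of either line. The stretches are read 5′ to 3′ on the strand of the gene from RefSeq promoters on GRCm38 and end 30 bases past a start of the gene. At *Rnf2* this is the RefSeq start, which lies upstream of the GENCODE TSS at chr1:151500955, so that stretch ends before the GENCODE TSS. They lie at chr7:89980954-89981226 on the minus strand (*Eed*), chr15:79932623-79932896 on the minus strand (*Cbx7*), chr11:79992856-79993135 on the plus strand (*Suz12*), chr1:151500962-151501241 on the minus strand (*Rnf2*) and chr11:119040940-119041163 on the minus strand (*Cbx8*).
Eed: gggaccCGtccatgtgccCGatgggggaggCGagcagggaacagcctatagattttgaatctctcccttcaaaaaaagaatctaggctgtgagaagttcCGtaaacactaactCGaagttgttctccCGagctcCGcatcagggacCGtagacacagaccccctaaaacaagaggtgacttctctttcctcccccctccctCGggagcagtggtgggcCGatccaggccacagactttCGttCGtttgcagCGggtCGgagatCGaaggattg
Cbx7: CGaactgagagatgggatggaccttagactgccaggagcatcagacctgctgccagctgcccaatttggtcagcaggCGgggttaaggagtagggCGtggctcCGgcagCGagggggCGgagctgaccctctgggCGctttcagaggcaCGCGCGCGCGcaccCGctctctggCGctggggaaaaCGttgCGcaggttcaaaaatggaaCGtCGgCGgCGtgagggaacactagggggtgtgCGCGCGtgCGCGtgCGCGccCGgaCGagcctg
Suz12: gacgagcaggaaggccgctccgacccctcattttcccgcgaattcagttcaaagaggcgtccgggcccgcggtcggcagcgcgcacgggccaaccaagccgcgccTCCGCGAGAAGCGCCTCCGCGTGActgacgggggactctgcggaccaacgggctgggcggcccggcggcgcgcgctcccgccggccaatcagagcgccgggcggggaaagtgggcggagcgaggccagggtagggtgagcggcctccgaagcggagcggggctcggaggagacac
Rnf2: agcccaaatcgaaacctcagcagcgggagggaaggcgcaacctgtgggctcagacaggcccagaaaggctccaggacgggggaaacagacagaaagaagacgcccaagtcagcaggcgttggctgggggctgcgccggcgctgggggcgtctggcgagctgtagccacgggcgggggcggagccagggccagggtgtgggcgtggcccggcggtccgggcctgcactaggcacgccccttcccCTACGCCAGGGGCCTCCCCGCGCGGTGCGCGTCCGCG
Cbx8: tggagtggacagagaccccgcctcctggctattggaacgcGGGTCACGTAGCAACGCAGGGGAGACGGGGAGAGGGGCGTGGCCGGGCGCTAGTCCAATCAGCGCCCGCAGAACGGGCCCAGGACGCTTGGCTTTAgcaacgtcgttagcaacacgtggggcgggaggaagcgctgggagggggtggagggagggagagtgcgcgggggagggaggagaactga

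All 9 Polycomb genes were marked in Scid.adh.2C2, where 45.5% of all protein-coding genes were, and 8 of 9 were marked in the Abelson line, where 48.2% were. The 8 genes marked in both lines stand beside a share of 42.2% over all protein-coding genes. The exception was *Eed*, marked in Scid.adh.2C2 only, as were 3.28% of all protein-coding genes. The strength of the mark is given as the highest fold enrichment over background among the peaks of a promoter, a value of the authors' peak caller. It ran from 14.9 to 38.2 in Scid.adh.2C2, with a median of 26.1 against 27.1 over all marked protein-coding promoters of that list. In the Abelson line it ran from 15.0 to 30.3, with a median of 21.2 against 21.7 over all. These medians were near those of each list, but the genes were spread widely. Fold percentiles ran from 7.97 to 94.0 in Scid.adh.2C2 and from 14.8 to 94.7 in the Abelson line. The upper values in Scid.adh.2C2, 38.2 and 94.0, belong to *Bmi1*, through a peak at the start of a neighbouring gene. The peak at the *Bmi1* start itself was 24.0-fold, at the 34.8 percentile with a window of 1000 bp. The marked length, which sums the full widths of the peaks touching a promoter, had a median of 2707 bp in Scid.adh.2C2 and 3208 bp in the Abelson line, against 2325 bp and 2704 bp over all marked promoters.

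**Figure D1:**
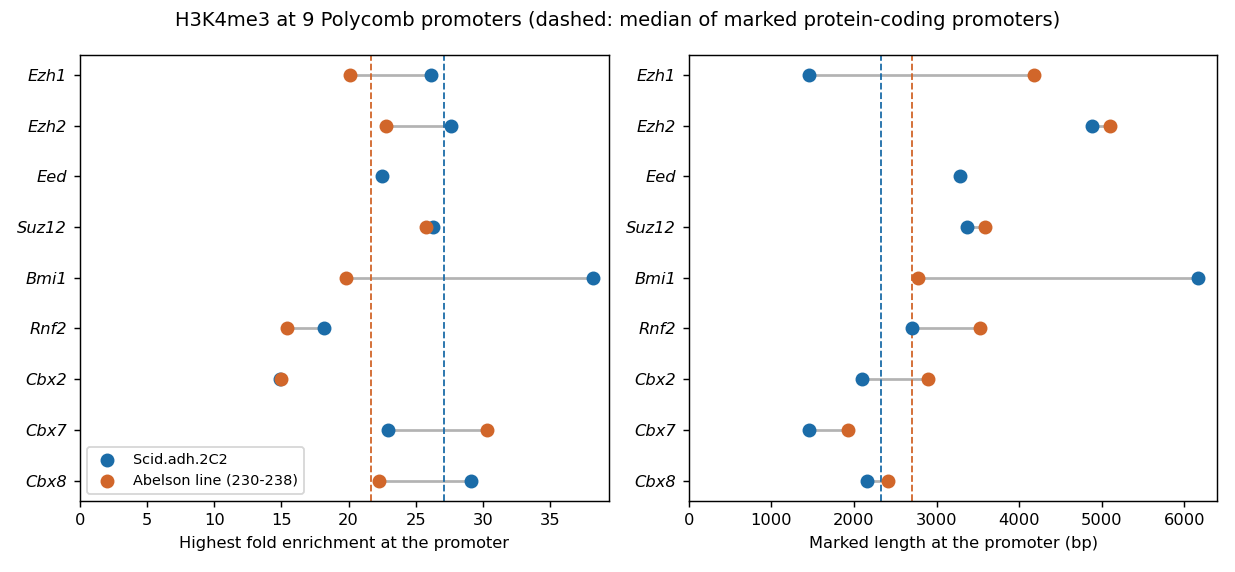
Highest fold enrichment (left) and marked length in bp (right) at each of the 9 promoters, with 1 point per line and a grey bar joining both lines; dashed lines are the medians over all marked protein-coding promoters. Fold enrichment ran from 14.9 (*Cbx2*) to 38.2 (*Bmi1*) in Scid.adh.2C2, and *Eed* has a point in that line only. The *Bmi1* values in Scid.adh.2C2 include a peak at the start of the neighbouring gene *Commd3*. The peak at the *Bmi1* start was 24.0-fold and 3210 bp.

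The folds of the lists differ in scale, so between the lines each promoter was compared by its percentile among the marked protein-coding promoters of its own list. The percentile was higher in Scid.adh.2C2 for 3 genes (*Ezh1*, *Bmi1* and *Cbx8*) and higher in the Abelson line for 5. Of the 9261 genes marked in both lines, 49.5% were higher in Scid.adh.2C2. By −log10 q, *Ezh1* and *Rnf2* changed sides. *Bmi1* counts here through the peak of its neighbour. With a window of 1000 bp it changed sides, at 34.8 and 37.0, which left 2 genes higher in Scid.adh.2C2. The marked length was longer in the Abelson line for 7 of 8 genes, the exception being *Bmi1*, but this was also the case for 74.9% of all genes marked in both lines. The median ratio of marked length, the Abelson line over Scid.adh.2C2, was 1.21 for the Polycomb genes and 1.13 for all genes.

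**Figure D2:**
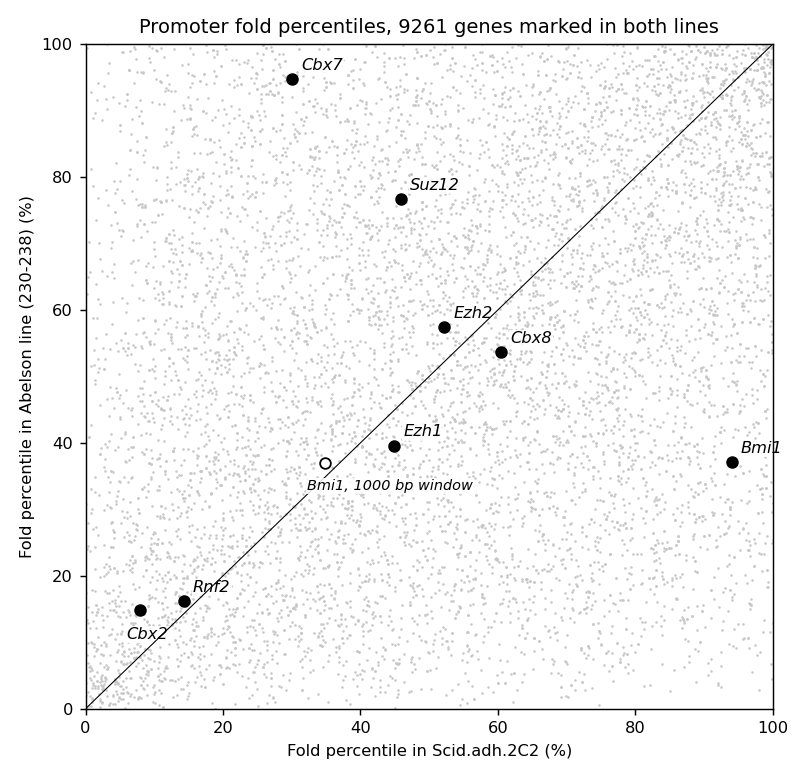
Fold percentile (%) in Scid.adh.2C2 (x) and the Abelson line (y) for the 9261 protein-coding genes marked in both lines (grey) and the 8 Polycomb genes among them (black); the open circle is *Bmi1* with a promoter window of 1000 bp, and the line marks equal percentiles. *Cbx7* lies farthest above the line, at 30.1% and 94.7%.

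Among the PRC2 genes, *Ezh2*, which encodes the main methyltransferase of dividing cells, carried the longest unbroken mark of the 9 genes in both lines. The gene lies at chr6:47530139-47595341 on the minus strand. A single peak of 4880 bp reached 27.6-fold in Scid.adh.2C2, and a single peak of 5105 bp reached 22.8-fold in the Abelson line. These lengths stood at the 95.0 and 89.8 percentiles of their lists, while the folds were near the middle, at the 52.2 and 57.4 percentiles. By −log10 q they stood at the 48.3 percentile in Scid.adh.2C2 and the 75.1 percentile in the Abelson line. The outer edges of both peaks lay close together, but relative to the principal TSS, with negative values upstream, the summit was at -606 bp in Scid.adh.2C2 and at 1157 bp in the Abelson line. In the Abelson line, a separate peak of 916 bp and 8.78-fold lay farther into intron 1.

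*Ezh1*, the paralog of *Ezh2* that is also used in resting cells, had the largest ratio of marked length of the 9 genes. The gene lies at chr11:101191115-101226463 on the minus strand. Its marked length was 1460 bp in Scid.adh.2C2 and 4178 bp in the Abelson line, which is 2.86 times longer and a ratio beyond that of all but 2.96% of the genes marked in both lines. The fold reached 26.1 in Scid.adh.2C2 and 20.1 in the Abelson line, at the 44.9 and 39.6 percentiles.

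The extra length at *Ezh1* came from a part of the gene far from its main start. At that start the lines had peaks of 1460 bp and 1763 bp. A further peak of 2415 bp and 12.4-fold, present in the Abelson line only, overlapped exons 16, 17 and 18 of 21 of the coding transcript, with its summit in exon 16. It counts as a promoter peak because a processed transcript of *Ezh1* starts at chr11:101194422 inside it. When only TSSs of protein-coding transcripts were used, the log2 ratio of marked length, Scid.adh.2C2 over the Abelson line, went from -1.52 to -0.27. In the Abelson line, another peak of 1730 bp and 9.67-fold lay 4458 bp upstream of the gene. *Cntnap1*, the neighbouring gene beyond the 3′ end of *Ezh1*, which encodes a membrane protein of axons, had 1 promoter peak of 1044 bp and 13.4-fold in Scid.adh.2C2 and 3 peaks of 9778 bp in all and up to 29.4-fold in the Abelson line. Over the percentiles of fold and length in both lines, the 3 protein-coding genes nearest to *Ezh1* among 9261 were *6430571L13Rik*, *Pla2g15* and *Sumf1*, at Euclidean distances of 6.6, 7.35 and 10.3 percentile units. The *Ezh1* length in the Abelson line counts the peak over exons 16 to 18 here.

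*Eed*, whose product binds methylated H3K27 and stimulates the methyltransferase, lies at chr7:89954654-89980983 on the minus strand. In Scid.adh.2C2 a single peak at chr7:89979077-89982366, 3290 bp wide and 22.5-fold, covered 5 of its 10 annotated TSSs. Its fold stood at the 28.4 percentile and its length at the 79.7 percentile, so the mark was wide and of below-median fold. Its −log10 q of 136 was close to the 137 of *Suz12*, which stood at the 62.4 percentile by that measure in Scid.adh.2C2. In the Abelson line no peak touched a promoter window or the body of *Eed*. The nearest peaks in that line were 14931 bp from an *Eed* TSS, at the *Hikeshi* promoter, and 17205 bp from one on the other side.

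The neighbours of *Eed* were marked in both lines. *Hikeshi*, a nuclear import factor gene, had 35.2-fold and 1995 bp in Scid.adh.2C2 and 25.1-fold and 2317 bp in the Abelson line. The antisense transcript *E230029C05Rik*, which starts inside *Eed*, shared the *Eed* peak in Scid.adh.2C2 but had a peak of 2689 bp and 12.2-fold at another of its starts in the Abelson line. The mark at *Eed* therefore cannot be assigned to 1 of these overlapping promoters. Of all protein-coding genes marked in Scid.adh.2C2, 7.2% had no promoter peak in the Abelson line. Among the 185 of these with a fold of 20 to 25 and a length of 3000 to 3500 bp, as at *Eed*, this was 9.19%.

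*Suz12*, whose product holds PRC2 together, lies at chr11:79993106-80034123 on the plus strand. Its fold was 25.8 in the Abelson line, at the 76.7 percentile, and 26.3 in Scid.adh.2C2, at the 45.9 percentile. This difference in rank was nearly absent by −log10 q, where the percentiles were 64.2 and 62.4. Its marked length was 3371 bp in Scid.adh.2C2 and 3584 bp in the Abelson line. The log2 ratio of these lengths, -0.09, lay above the median of -0.18 over all genes.

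**Figure D3:**
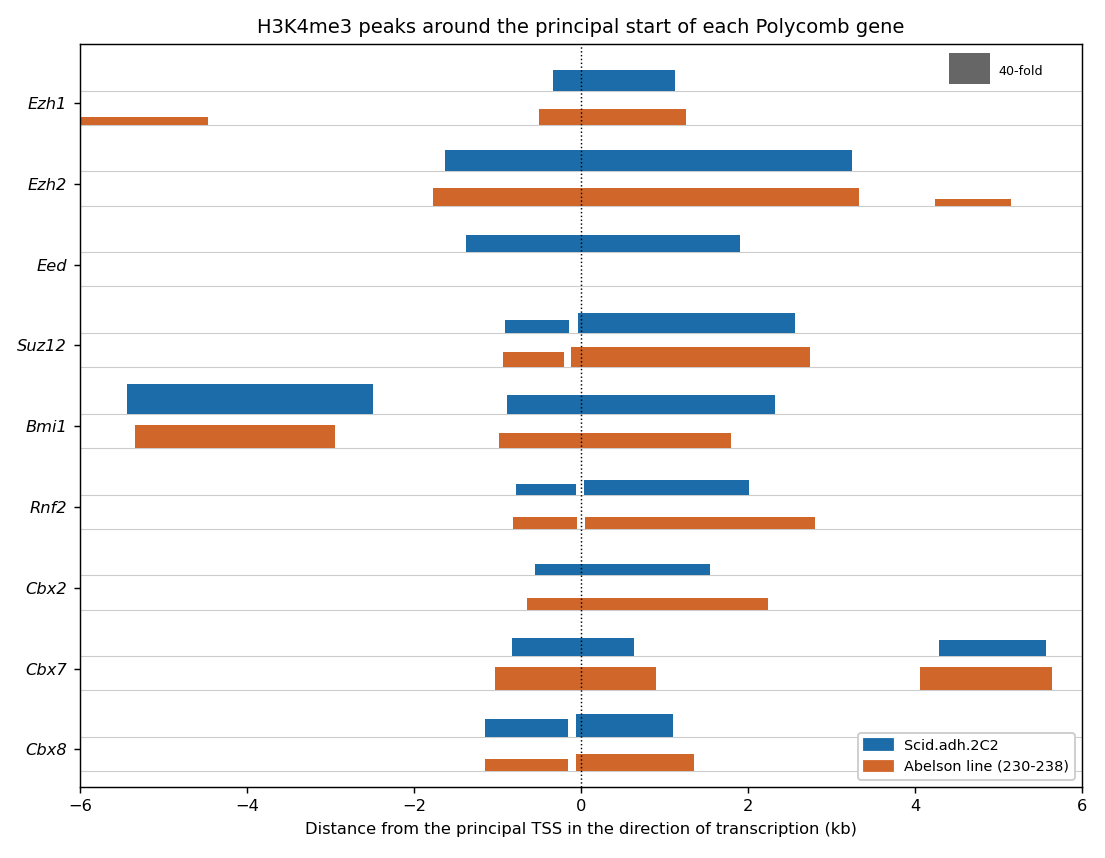
H3K4me3 peaks of both lines around the principal TSS of each gene (dotted line), with distance in kb in the direction of transcription on the x axis; each box spans a peak and its height is the fold enrichment, to the scale of the grey box. *Ezh2* has the longest box at a start (4880 bp and 5105 bp), *Eed* has none in the Abelson line, and the boxes of *Suz12*, *Rnf2* and *Cbx8* are divided at the start; the peak over *Ezh1* exons 16 to 18 lies outside the range drawn.

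Among the PRC1 genes, *Bmi1*, a PCGF gene known for sustaining self-renewal of blood stem cells, had the highest fold of the 9 genes in Scid.adh.2C2, through a peak at the start of a neighbouring gene, but not in the Abelson line. Of the 8 genes marked in both lines it had the only mark that was longer in Scid.adh.2C2. The gene lies at chr2:18677018-18686629 on the plus strand. Its values were 38.2-fold and 6165 bp in Scid.adh.2C2, against 19.8-fold and 2772 bp in the Abelson line, or the 94.0 and 37.1 percentiles for fold. The length was 2.22 times longer in Scid.adh.2C2.

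This difference at *Bmi1* rested on a peak at the start of its upstream neighbour. In Scid.adh.2C2 the 38.2-fold peak, at chr2:18671578-18674532, stood at the start of *Commd3*, a COMM domain gene read in the same direction, and reached 15 bp into the *Bmi1* window. The counterpart in the Abelson line, of 29.2-fold, ended 2949 bp from the *Bmi1* TSS and so fell outside the window. At the *Bmi1* TSS itself the peaks were 3210 bp and 24.0-fold in Scid.adh.2C2 and 2772 bp and 19.8-fold in the Abelson line. With a window of 1000 bp, which holds these peaks alone, the fold percentiles were 34.8 and 37.0 and the log2 ratio of length went from 1.15 to 0.21.

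*Rnf2*, which encodes RING1B, the ubiquitin ligase of PRC1, lies at chr1:151458004-151500955 on the minus strand. It was weakly enriched in both lines, with 18.2-fold in Scid.adh.2C2 and 15.4-fold in the Abelson line, at the 14.3 and 16.2 percentiles. Its marks were nevertheless longer than the median of their lists, at 2707 bp and 3523 bp.

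*Suz12*, *Rnf2* and *Cbx8* each had 2 peaks divided by a gap of 86 to 103 bp at the start, in both lines. The gap at *Suz12* was 103 bp in Scid.adh.2C2 and 88 bp in the Abelson line, ending at -43 bp and -122 bp from the TSS. At *Rnf2* the gaps of 86 bp and 88 bp held the TSS at chr1:151500955. Another 3 coding starts of *Rnf2*, 1 of them principal, lay inside the downstream peak in both lines. At *Cbx8* the gaps were 99 bp in both lines and ended at -56 bp and -59 bp from it. The downstream peak had the higher fold in each case, with the smallest difference at *Rnf2* in the Abelson line (15.4 against 15.2) and the largest at *Suz12* in Scid.adh.2C2 (26.3 against 16.3). Gaps of up to 150 bp lay anywhere in the windows of 11.7% of marked protein-coding genes in Scid.adh.2C2 and 15.5% in the Abelson line. The median of such gaps was 103 bp in each list. The smallest gap was 68 bp in both lists and none above 150 bp was counted, so these gaps could differ little in size. Of them, 625 of 1348 in Scid.adh.2C2 and 933 of 1999 in the Abelson line had a TSS of a protein-coding gene within 150 bp. The bases of the printed stretches that lay in no peak of either line were 24 at *Suz12*, 37 at *Rnf2*, where the stretch ends within the gap, and 96 at *Cbx8*, with a GC content of 70.8%, 83.8% and 68.8%.

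The 3 CBX genes encode readers of methylated H3K27 that take the same place in PRC1. *Cbx7*, the reader best known from stem and progenitor cells, lies at chr15:79915807-79971119 on the minus strand. Its fold was 22.9 in Scid.adh.2C2, at the 30.1 percentile, and 30.3 in the Abelson line, at the 94.7 percentile. Of the 8 genes, only *Cbx7* and, narrowly, *Cbx2* had a higher fold in the Abelson line, although the folds of that list were lower in general. The difference of -64.6 percentile points lay below that of all but 3.58% of the genes marked in both lines. By the −log10 q-value in place of the fold, the percentiles were 42.1 and 66.6, a difference of -24.5 points.

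The mark at *Cbx7* was short, at 1457 bp in Scid.adh.2C2 and 1933 bp in the Abelson line, or the 12.3 and 22.5 percentiles of length. It covered 5 of 9 annotated TSSs in both lines, and the starts at the far upstream end of the gene were unmarked. A peak in intron 2 followed the same order, with 20.5-fold in Scid.adh.2C2 and 29.6-fold in the Abelson line. A small peak of 376 bp and 9.58-fold farther upstream within the gene was found in Scid.adh.2C2 only.

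*Cbx2* and *Cbx8* are neighbours on chromosome 11. *Cbx2* (chr11:119022962-119031270, plus strand) had the lowest fold of the 9 genes in both lines, 14.9 in Scid.adh.2C2 and 15.0 in the Abelson line, at the 7.97 and 14.8 percentiles. Its marked length was 2100 bp and 2892 bp. Its summit was at -125 bp from the TSS in Scid.adh.2C2 and at 1104 bp in the Abelson line. *Cbx8* (chr11:119036305-119040969, minus strand) had 29.1-fold and 2156 bp in Scid.adh.2C2 and 22.3-fold and 2408 bp in the Abelson line, at the 60.5 and 53.7 percentiles of fold. In fold percentile the promoters of this pair thus differed more from each other within each line than either did between the lines.

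Upstream of *Cbx8* the Abelson line had a pair of further peaks without a counterpart in Scid.adh.2C2, and neither lay in an annotated promoter window. The nearer was 1039 bp wide and 12.4-fold, 6592 bp from the *Cbx8* TSS, and the farther was 2181 bp wide and 12.2-fold, 11287 bp from it.

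Around the principal start, the mark reached farther downstream than upstream at 7 of 9 genes in Scid.adh.2C2 and 7 of 8 in the Abelson line, as at 79.4% and 80.0% of all protein-coding genes with a peak at the principal start. At *Cbx7* the downstream share of the mark reached 43.5% in Scid.adh.2C2 and 46.5% in the Abelson line, and at *Cbx8* it reached 48.9% in Scid.adh.2C2 and 54.0% in the Abelson line. The summit lay downstream of the start at 6 of 9 genes in Scid.adh.2C2, the exceptions being *Ezh2*, *Eed* and *Cbx2*, and at 8 of 8 in the Abelson line, against 76.1% and 75.8% of all genes. Of the 64 annotated TSSs of the 9 genes, 31 lay in a peak in Scid.adh.2C2 and 28 in the Abelson line. In that order, *Eed* had 5 and 0, *Ezh1* 4 and 5 and *Suz12* 3 and 4, and the other genes had equal counts. The share over all annotated TSSs was not computed.

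A RefSeq promoter of 300 bases was matched for 8 of the 9 genes. These held a median of 27 CG dinucleotides, against 14 over the promoters of all protein-coding genes and 22 over those overlapped by a peak in each list. *Suz12* had the most, with 41 (the 95.7 percentile), and *Eed* the fewest, with 17 (the 57.1 percentile). The other promoters held 23 at *Ezh1* and *Bmi1*, 24 at *Cbx8*, 30 at *Rnf2*, 31 at *Ezh2* and 33 at *Cbx7*.

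Letters known from promoter-binding factors were searched on both strands of these windows. TTTCCCGC, an E2F motif, was found at *Suz12* and in 1.07% of all 32851 promoter windows, and TTTGGCGC, another E2F motif, at *Ezh2* and in 0.514%. None of the motifs searched contains another. The 32851 windows are a larger set than the 20150 of protein-coding genes used for CG dinucleotides. Motif shares among windows overlapped by a peak were not computed. CCAAT, the NF-Y motif, was found at 5 genes (*Ezh2*, *Eed*, *Suz12*, *Cbx7* and *Cbx8*) and in 37.4% of windows. At *Eed* it does not lie wholly within the stretch printed above, which ends before the searched window of 300 bases does. The *Eed* motif thus lies at or past the downstream end of that stretch. CCGGAAG (ETS) and GCATGCGC (NRF1), which occur in 8.86% and 2.71% of windows, were found at 0 of the 8.

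Of 36 other Polycomb genes found in the annotation, 31 were marked in both lines, 0 in a single line and 5 in neither. Of all protein-coding genes, 42.2% were marked in both lines, 45.5% in Scid.adh.2C2 and 48.2% in the Abelson line. The 3.28% marked in Scid.adh.2C2 only leave out those marked in the Abelson line only. In counts, 9261 protein-coding genes were marked in both lines, of 9980 marked in Scid.adh.2C2 and 10570 in the Abelson line. Of those marked in Scid.adh.2C2, 7.2% had no promoter peak in the Abelson line. By role, the marked genes included 8 of 9 histone-binding and accessory genes of PRC2, 6 of 6 RING and PCGF genes, 7 of 10 genes of variant PRC1 and related proteins, 3 of 4 genes of the PR-DUB deubiquitinase and 2 of 2 H3K27 demethylase genes. The unmarked genes were *Epop*, *Auts2*, *Scmh1*, *Scml2* and *Asxl3*, whose nearest peaks lay 25623 bp or more from a TSS. With this promoter definition, *Eed* was the single gene of these and the 9 that differed in its marked state. Among the other genes the counts differed between the lines under 3 alternatives, with 30 marked in Scid.adh.2C2 and 31 in the Abelson line for TSSs of protein-coding transcripts or for peaks of at least 10-fold, and 31 and 30 for summits inside the window.

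Of the 31 other genes marked in both lines, 21 had a longer mark in the Abelson line and 10 in Scid.adh.2C2, with a median log2 ratio of -0.22, where 74.9% of all genes marked in both lines were longer in the Abelson line. Among the most shifted toward the Abelson line were *Phf19*, a PRC2 accessory gene (1219 bp in Scid.adh.2C2 against 4089 bp), and *Kdm2b*, which brings variant PRC1 to CpG islands (4746 bp against 10417 bp). The most shifted toward Scid.adh.2C2 were *Pcgf5*, a PCGF paralog of *Bmi1* (4844 bp against 1944 bp), *Mtf2*, a PRC2 accessory gene (7305 bp against 3334 bp), and *Bcorl1*, a corepressor gene (5478 bp against 3040 bp). Fold did not follow length in all of these genes. The fold percentile in Scid.adh.2C2 and the Abelson line was 13.9 and 88.6 at *Phf19* but 97.3 and 25.5 at *Kdm2b*, against the direction of its length. It was 13.3 and 33.1 at *Pcgf5*, also against the length, 94.9 and 81.4 at *Mtf2*, and 39.2 and 25.6 at *Bcorl1*. The log2 ratios of *Ezh1* (-1.52) and *Bmi1* (1.15) lay within the range of these genes, which ran from -1.75 to 1.32. Both ratios include a peak away from the main start of the gene, as described above.

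**Figure D4:**
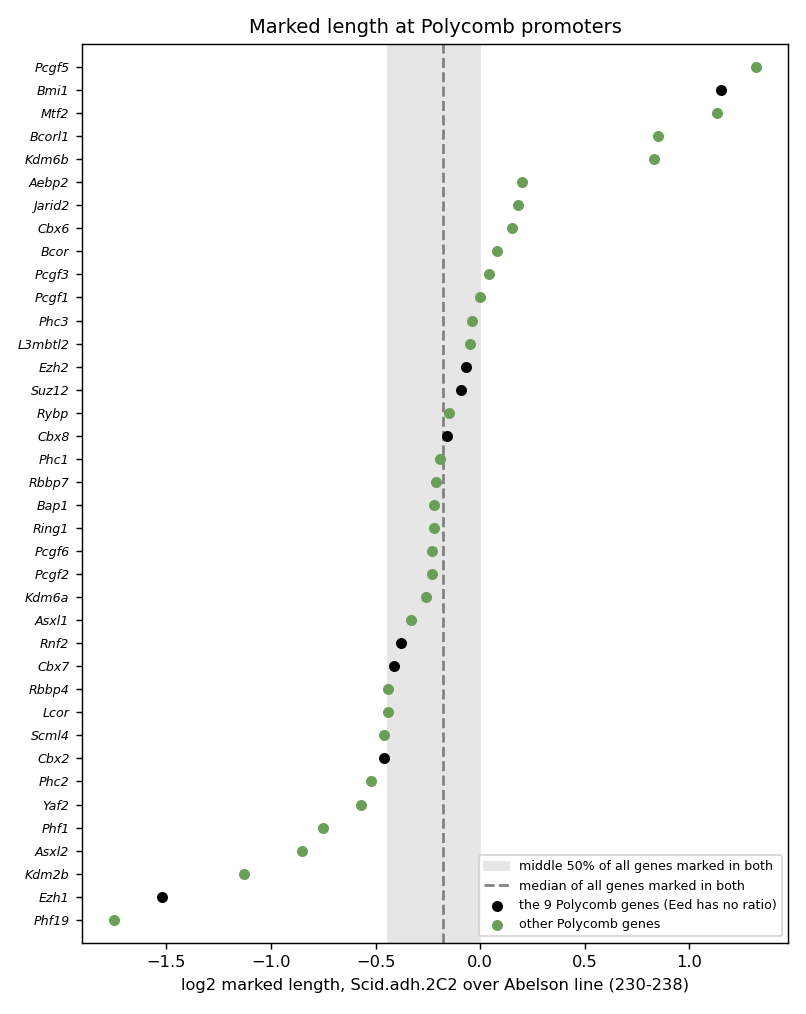
log2 ratio of marked length, Scid.adh.2C2 over the Abelson line (x), at Polycomb promoters marked in both lines (y); black points are 8 of the 9 genes, green points 30 of the 31 others, the dashed line the median (-0.18) and the grey band the middle 50% over all genes marked in both lines. *Ezh1* (-1.52) and *Bmi1* (1.15) lie outside the band on opposite sides. Both points include a peak away from the main start of the gene. The ratio was -0.27 at *Ezh1* with TSSs of protein-coding transcripts only, and 0.21 at *Bmi1* with a window of 1000 bp.

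The HP1 genes *Cbx1*, *Cbx3* and *Cbx5*, which share the chromodomain of the CBX family but read methylated H3K9, were marked in both lines. *Cbx3* had the highest fold of these, 36.3 in Scid.adh.2C2 and 28.3 in the Abelson line, with lengths of 5782 bp and 8758 bp. *Cbx1* had 21.0-fold and 2320 bp in Scid.adh.2C2 and 12.2-fold and 2929 bp in the Abelson line. *Cbx5* had 28.4-fold and 6483 bp, and 20.4-fold and 7306 bp.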

How the data were processed

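Trimming by the authors used Trim Galore (0.6.7). They mapped reads to mm10 with Bowtie2 (2.4.4), called narrow peaks with MACS2 (2.2.7.1) against input at a q-value of 0.05, and kept the optimal set at an IDR of 0.05, with both replicates in 1 list per line. Of the deposited columns, the IDR score, the fold enrichment (a ratio), and −log10 of both the p-value and the q-value were used as given. Library depth is not given in the lists.

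Peaks were joined to all TSSs of GENCODE vM21 with Python 3.11.15, numpy 2.4.6 and pandas 2.3.3. Figures used matplotlib 3.10.9. With 1 list per line, no test was run. The genes named are the 9 genes, their peak-sharing neighbours, the HP1 genes, and, of a fixed list of 37 other Polycomb genes, those unmarked in a line and the 3 most shifted in length each way, with the 3 genes nearest to the gene of the largest length ratio. *Hikeshi* and *Cntnap1* were named after their values were seen. *Ezhip* was not found in the annotation. A gene that this rule names is not reported here. The members and lists were chosen with earlier results of these data known. The overlap functions were tested on simulated data. Alternatives were other windows, TSS sets, peak thresholds, length measures and rankings.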

Additional observations from a re-analysis of the deposited data

How the results depend on the processing

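The alternatives gave 321 values. All 51 counts stayed within 1.5 times the reported count, a wide limit for small counts. The count of the 9 genes with a higher fold percentile in Scid.adh.2C2 went from 3 to 2 with a window of 1000 bp. It was also 2 with percentiles among all peaks of the list. By −log10 q it stayed at 3, with *Rnf2* in place of *Ezh1*. Of the values of single genes, 229 moved by less than the limit set for them, 37 moved by more and 4 changed sign. With a window of 1000 bp the fold percentile of *Bmi1*, Scid.adh.2C2 minus the Abelson line, was -2.15, since that window leaves out the *Commd3* peak. By −log10 q the difference was -15.5 for *Ezh1* and 4.92 for *Rnf2*, and among all peaks of the list it was -0.82 for *Ezh1*, and the cause was not tested. With the most upstream TSS only, 8 of the 9 genes were marked in Scid.adh.2C2 and 7 in the Abelson line, since *Cbx7* is marked at its inner starts. No paired analysis was possible because each list combines both replicates, and no replicate could be left out for the same reason. An unmarked promoter may hold signal below the thresholds, and the depth is unknown.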
